A study of Caenorhabditis elegans with 2 samples.

Results

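The genes described here encode the small nuclear RNAs (snRNAs) of the spliceosome and the spliced-leader (SL) RNAs of Caenorhabditis elegans, examined for chromatin immunoprecipitation sequencing (ChIP-seq) signal of the transcription factor SOX-4. They were taken as every gene that the Ensembl annotation of the WBcel235 assembly (the same assembly as ce11) classes as snRNA or whose symbol starts with sls-, which gave 129 of the 46890 genes on the 6 nuclear chromosomes. The worms were of strain OP517 (unc-119(tm4063) III; wgIs517), 1 transgenic line that expresses SOX-4 with a C-terminal GFP-FLAG tag from the insertion wgIs517, and chromatin from whole late embryos of mixed sex was precipitated 4 hours after synchronization by egg bleaching. The description of the libraries names an antibody against GFP, whereas their antibody label reads sox-4. The 2 biological replicates form 1 group, so no comparison between conditions was possible. In whole embryos, signal in a few cells and weak signal in many cells cannot be told apart. For each gene the strongest listed region was taken whose summit, the position of highest signal in the region, lay within 200 bp of the gene. No list from worms without the tagged protein was used here.

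Spliceosomes are built from the U1, U2, U4, U5 and U6 snRNAs, each bound by its own set of proteins. U1 pairs with the start of an intron, U2 with the branch point, U5 contacts the exons, and U6, which arrives paired with U4, forms the catalytic core. In nematodes many messenger RNAs receive their first exon by trans-splicing from an SL RNA, with SL1 used for most and SL2 mainly for downstream genes of operons, and SmY RNAs are small nematode RNAs linked to SL trans-splicing. RNA polymerase III transcribes U6, while RNA polymerase II transcribes the other U snRNAs and the SL RNAs, and both kinds of gene depend on a proximal sequence element upstream of the start that the complex SNAPc reads. SOX-4 belongs to the HMG-box family of transcription factors.

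Members were placed in families by short sequence words or by symbol. The U6 family held 22 genes, U2 held 19, U1 held 12, U5 held 11 and U4 held 5, which makes 69 U snRNA genes. The SL2 family held 18 genes, SL1 held 12 and SmY held 10. The other 20 genes carried none of the family words. Of these 20 genes, 7 were at least 75% identical to a family member and 13 were not. Copies within a family share sequence, so they are not independent of each other.

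The RNAs of 2 SL genes are shown, in the DNA letters of the RefSeq copy of WBcel235, 5′ to 3′. The SL2 gene sls-2.1 carried a thresholded peak, while sls-1.10 stands for the SL1 family, which had no region. In both the capitals mark the 22-base leader that is transferred to messenger RNAs.
sls-2.1, chromosome II, 5844865 to 5844974, plus strand: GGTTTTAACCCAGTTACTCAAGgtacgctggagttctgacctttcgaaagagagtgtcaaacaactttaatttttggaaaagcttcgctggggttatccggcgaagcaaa
sls-1.10, chromosome V, 17120694 to 17120791, minus strand: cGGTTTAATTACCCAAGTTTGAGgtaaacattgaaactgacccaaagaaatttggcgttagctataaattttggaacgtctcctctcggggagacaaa

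Signal was read from 4 lists of regions on ce11. The pooled list and the list of each replicate hold 30000 regions each, weak ones included, and the thresholded list holds 668 peaks kept by the authors for reproducibility. The signal value is the authors' own measure of the strength of a region, not scaled between libraries, so it was compared within a list, where rank 1 is the strongest region. In the pooled list the thresholded peaks were simply the top 668 by signal, with values from 130 to 1365, against a lowest value of 36.3 and a median of 51.1 in the whole pooled list. Without read counts in these lists, the depth behind each value is unknown.

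As a class, snRNA and SL RNA genes were marked about as often as all other short genes combined. A region of the pooled list lay at 41 of the 129 members (31.8%), as against 29.2% of all genes. A thresholded peak lay at 8 members (6.20%), as against 2.09% of all genes. All genes include 15363 piRNA genes, of which 14714 lie on chromosome IV, and long protein-coding genes, so a closer reference is the 7780 other genes of up to 187 bp that are not piRNA genes. Among these, 35.9% had a region and 6.12% had a thresholded peak. Once tRNA and snoRNA genes were also set aside, the remaining 6877 short genes had 33.2% with a region and 3.27% with a thresholded peak. A region was listed at 385 of 612 tRNA genes (62.9%) and at 139 of 346 snoRNA genes (40.2%), and a thresholded peak at 197 tRNA genes (32.2%) and 56 snoRNA genes (16.2%). These shares are counts over genes of 1 pooled list and carry no test. The 2 replicate lists gave similar shares: 36 members had a region in each list (27.9%), against 30.2% of all genes in replicate 1 and 29.7% in replicate 2.

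**Figure D1:**
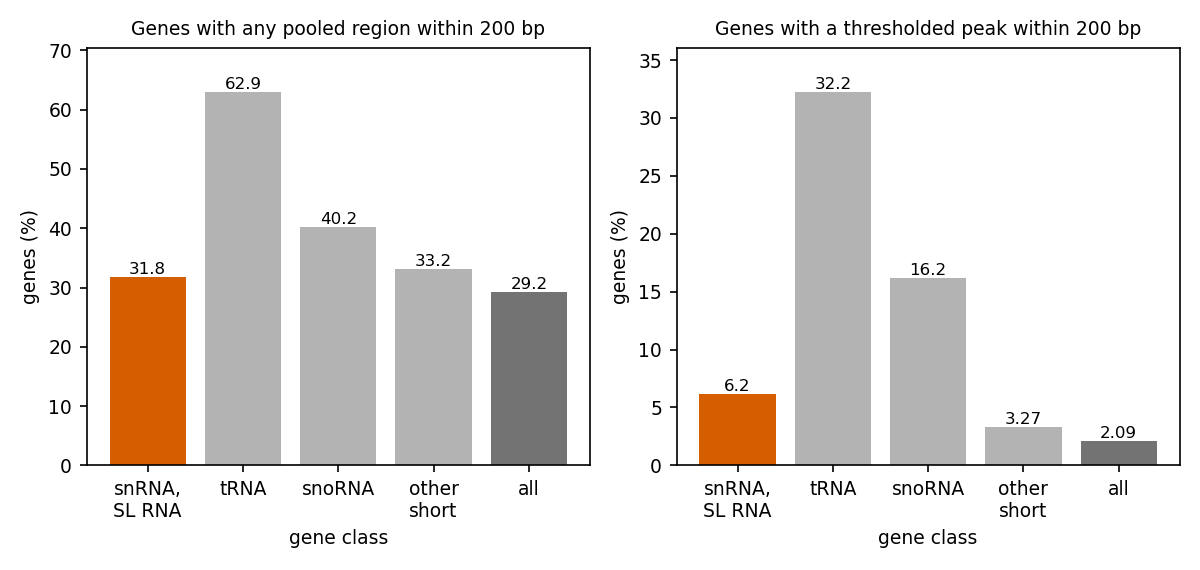
Share of genes (%) with a region of the pooled list within 200 bp (left) and with a thresholded peak (right), for the snRNA and SL RNA genes (orange), tRNA genes, snoRNA genes, other genes of up to 187 bp (without piRNA, tRNA and snoRNA genes), and all genes. The 129 members stand at 31.8% and 6.20%, against 33.2% and 3.27% of other short genes and 62.9% and 32.2% of tRNA genes.

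The thresholded peaks fell in only 2 of the 8 families. SL2 held 5 of them (27.8% of 18 genes) and U6 held 3 (13.6% of 22 genes). None lay at the 12 U1, 19 U2, 5 U4, 11 U5, 12 SL1 or 10 SmY genes, nor at the 20 genes without a family. Regions of any strength, which 29.2% of all genes and 35.9% of other short genes had, were spread differently: 7 of 11 U5 genes (63.6%), 11 of 19 U2 genes (57.9%), 8 of 18 SL2 genes (44.4%), 5 of 12 U1 genes (41.7%), 5 of 22 U6 genes (22.7%) and 1 of 5 U4 genes had one, along with 4 of the 20 genes without a family. In the pooled list U5, U2, SL2 and U1 were thus above these shares, with no test of the difference. U6, U4, SL1, SmY and the genes without a family were below them. The U1 and U4 shares rest on 12 and 5 genes, too few to set them apart from these shares. In the single replicate lists U2 had a region at 9 genes (replicate 1) and 7 genes (replicate 2), and U5 at 4 and 6 genes. SL2 had one at 7 genes and U1 at 5 genes in each replicate list. Among members with a region, the median pooled rank was 285 for U6, 379.5 for SL2, 2323 for U1, 10867 for U5 and 18182 for U2. These medians moved between the replicate lists. In replicates 1 and 2 they were 3074.5 and 11502.5 for U5, 1234 and 250 for SL2, and 287 and 547 for U6. For U1 they were 5932 and 3629, and for U2 16122 and 17365. No member lay between signal values of 116 and 148, the values of the U6 gene R07E5.16 just outside the thresholded list and of sls-2.8 just inside it.

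**Figure D2:**
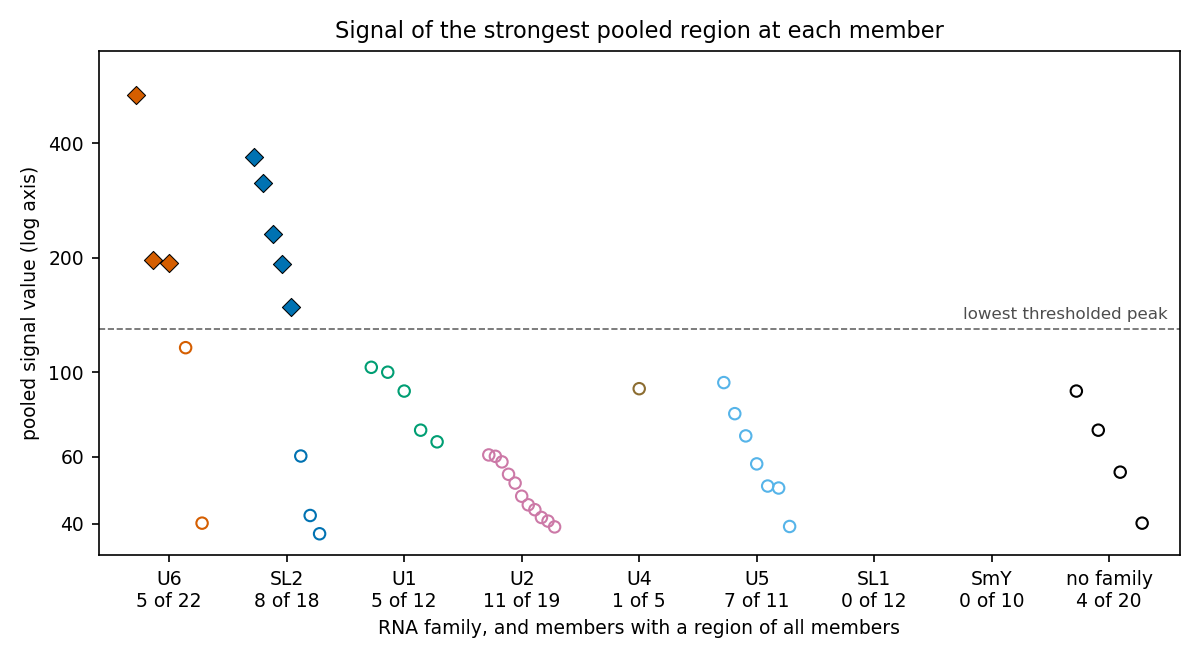
Signal value of the strongest pooled region (log axis) at each of the 41 members that had one, by RNA family, with the number of members below each name. Filled diamonds are thresholded peaks, open circles are weaker regions and the dashed line is the lowest thresholded peak. Filled points appear for U6 (up to 535) and SL2 (up to 369), while U2 stays at or below 60.6.

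The strongest SL2 region lay at sls-2.4, an intergenic gene on chromosome I (4172206 to 4172315, plus strand), with a pooled signal of 369 (rank 86), 238 in replicate 1 (rank 63) and 140 in replicate 2 (rank 127). At sls-2.1, intergenic on chromosome II (5844865 to 5844974, plus strand), the signal was 314 in the pooled list (rank 124), 177 in replicate 1 (rank 119) and 140 in replicate 2 (rank 126). At sls-2.2, also intergenic on chromosome II (5543598 to 5543707, plus strand), it was 231 in the pooled list (rank 209), 158 in replicate 1 (rank 146) and 81.1 in replicate 2 (rank 364). In both replicates these 3 genes ranked within the top 668.

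The other 2 SL2 genes with a thresholded peak were less even between the libraries. For sls-2.8, intergenic on chromosome III (12250465 to 12250575, plus strand), the pooled signal was 148 (rank 472), with 64.0 in replicate 1 (rank 1234) and 96.8 in replicate 2 (rank 250). For sls-2.9, intergenic on chromosome I (13297877 to 13297985, plus strand), the pooled signal was 193 (rank 287), with rank 182 in replicate 2 and no summit within 200 bp in replicate 1. The overlapping region of replicate 1 ranked 412, but its summit lay 234 bp from the gene. The pooled summit at sls-2.9 lay 110 bp upstream of that gene and 22 bp from a tRNA gene on the opposite strand, and sls-2.9 was the 1 member of the 41 whose pooled summit stood nearer to a tRNA or snoRNA gene or a protein-coding 5′ end than to the member. At sls-2.8 the summit lay 104 bp upstream of the SL2 gene and 197 bp upstream of the 5′ end of tim-1, which encodes the worm's Timeless protein. Genes annotated as ncRNA were left out of that nearest-gene count. At least 1 lay within 200 bp of the pooled summit at 23 of the 41 members, and at 5 of the 8 with a thresholded peak. At sls-2.8 an ncRNA gene was 102 bp from the summit, and at C52E4.8 one was 2 bp away, against 15 bp for the member. A protein-coding gene, its body included, lay within 200 bp at 25 of the 41. Which gene the signal belongs to was not tested. With the strongest 668 regions of replicate 1 alone in place of the thresholded list, 3 SL2 genes were marked in place of 5, and with a summit limit of 100 bp the number was also 3.

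Among the weaker SL2 regions, sls-2.14 had a pooled signal of 60.2 (rank 9460), sls-2.16 had 42.0 (rank 23180) and sls-2.7, the lowest of the family, had 37.6 (rank 28443). The other 10 SL2 genes had no pooled region, and 9 of the 10 had none in either replicate list. The exception, sls-2.15, had a region only in replicate 1 (signal 30.8, rank 17401). The 5 SL2 genes on chromosome IV (sls-2.10 to sls-2.13 and sls-2.17) were all without a region in any list, and the nearest pooled summit was 3520 to 14835 bp away. On the other chromosomes 8 of 13 SL2 genes had a region and 5 had a thresholded peak.

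The U6 gene W05B2.8, in an intron of the dynein heavy chain gene dhc-4 (10989679 to 10989780, plus strand), carried the strongest region of all members. Its signal was 535 in the pooled list (rank 31), 323 in replicate 1 (rank 24) and 220 in replicate 2 (rank 43). At C28A5.7, a U6 gene in an intron of C28A5.6 (4426854 to 4426955, minus strand), it was 197 in the pooled list (rank 273), 110 in replicate 1 (rank 286) and 79.8 in replicate 2 (rank 380). At F54D8.7, an intergenic U6 gene (5080798 to 5080898, minus strand), it was 194 in the pooled list (rank 285), 109 in replicate 1 (rank 287) and 83.5 in replicate 2 (rank 340). All 3 ranked within the top 668 in both replicates, and all 3 lie on chromosome III.

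The next U6 gene, R07E5.16, also lies on chromosome III and was uneven between libraries. Its pooled signal was 116 (rank 921), with 48.5 in replicate 1 (rank 3907) and 68.3 in replicate 2 (rank 547). K09C6.12, on chromosome V, was the lowest U6 gene with a region, at a pooled signal of 40.1 (rank 25351). The other 17 U6 genes had no pooled region, and 14 of them had none in either replicate list. Of the 12 U6 genes on chromosome IV none had a pooled region, and Y9C9A.111 alone had one in a replicate (signal 43.7, rank 5873 in replicate 1). A pooled region was listed at 10.4% of all genes on IV and at 37.6% of those that are not piRNA genes.

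Copies that encode the same U6 RNA differed as much as the family did. A set of 14 U6 genes is identical over all 102 bases, and this set held W05B2.8 at rank 31, C28A5.7 at rank 273, R07E5.16 at rank 921, K09C6.12 at rank 25351 and 10 copies with no pooled region. A second set of 3 identical genes held F54D8.7 at rank 285, while Y17G9A.85 and T08B6.62 had no region in any list. The RNA-coding sequence is the same within each set, so within each set the listed signal differed between copies while the transcribed sequence did not. In the set of 14, all 4 pooled summits lay inside the shared 102 bases, where a read can match several copies. How such reads were placed is not known, and the part of read placement in these differences was not tested.

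At U1 genes, whose RNA recognises the intron start, regions were of intermediate strength. The strongest was at sup-6, with 103 in the pooled list (rank 1360), 64.6 in replicate 1 (rank 1185) and 40.1 in replicate 2 (rank 3629). F08H9.11 had a pooled signal of 100 (rank 1483), sup-39 had 89.2 (rank 2323), T27E4.12 had 70.4 (rank 5622) and H27M09.6, the lowest, had 65.6 (rank 7173). All 5 had a region in both replicates, and 7 U1 genes had none in any list. At U5 genes the highest pooled signal was 93.9 at F32B5.9 (rank 1939; 56 in replicate 1 and 40.8 in replicate 2), and the lowest was 39.3 at F07C6.5 (rank 26344), which was listed in replicate 2 alone.

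At U2 genes all 11 regions were weak. Signals ran from 60.6 at W04G5.11 (rank 9269; 31.8 in replicate 1 and 25.7 in replicate 2) down to 39.2 at W07G1.8 (rank 26407; 29.4 in replicate 1 and 19.9 in replicate 2), and only 4 U2 genes had a region in both replicate lists. Of the 5 U4 genes, C52E4.8 had a pooled signal of 90.5 (rank 2205), with 42.4 in replicate 1 (rank 6545) and 51.5 in replicate 2 (rank 1383). F10D2.13 had a region only in replicate 1 (signal 33.8, rank 13724), and K03B8.10, T11F9.15 and T11F9.16 had none in any list. T11F9.15 encodes the same U4 RNA as C52E4.8. The U4 gene C52E4.8 shares its region with the promoter of snr-4, which encodes an Sm core protein of snRNPs: the summit lay 15 bp upstream of the U4 gene and 380 bp upstream of the 5′ end of snr-4.

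SL1 and SmY genes had no region in any of the 3 full lists. The 12 SL1 genes lie between 17118154 and 17132107 on chromosome V, in an array that also holds 14 annotated 5S ribosomal RNA genes of the rrn-4 group. The 1 pooled summit inside that span was weak (signal 40.9, rank 24453) and was 982 bp or more from any SL1 gene. Of the 12 SL1 gene models, 10 are identical over 98 bases. The others, sls-1.1 and sls-1.5, are 68-base models that do not have the leader at their start. The 10 SmY genes were at a median of 12271 bp from the nearest pooled summit. Among the 20 genes without a family, the regions at mir-1831 (signal 89.2, a 22-base model inside sup-39) and T27E4.22 (signal 70.4, overlapping T27E4.12) are the same regions as those of the U1 genes they overlap. The remaining ones were F56A12.5 (54.6, rank 12599) and F20D1.21 (40.1, rank 25392). The 41 members with a region thus rested on 39 distinct regions.

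The 80 bases upstream of each 5′ end are shown for U6 and SL2 genes that had a thresholded peak, stood just outside the thresholded list or had no region. They are given on the gene's strand, 5′ to 3′, ending at the base before the gene. Capitals mark the word GCGGAAC, the shorter word TGTCNG (N stands for any base) and the word that resembles a TATA box, TATATAA. These 3 words were chosen after the sequences were seen.
W05B2.8, U6, chromosome III, 10989599 to 10989678, rank 31: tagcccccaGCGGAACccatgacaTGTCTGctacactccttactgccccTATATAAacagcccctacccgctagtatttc
C28A5.7, U6, chromosome III, 4426956 to 4427035, rank 273: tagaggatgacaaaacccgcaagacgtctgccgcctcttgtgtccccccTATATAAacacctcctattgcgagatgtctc
F54D8.7, U6, chromosome III, 5080899 to 5080978, rank 285: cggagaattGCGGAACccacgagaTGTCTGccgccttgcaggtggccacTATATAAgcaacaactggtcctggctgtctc
R07E5.16, U6, chromosome III, 4414105 to 4414184, rank 921: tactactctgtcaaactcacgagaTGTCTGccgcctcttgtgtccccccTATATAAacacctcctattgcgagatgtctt
Y17G9A.85, U6, chromosome IV, 4864736 to 4864815, no region: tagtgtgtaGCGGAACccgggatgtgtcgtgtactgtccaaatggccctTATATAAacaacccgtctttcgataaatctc
K09B11.12, U6, chromosome IV, 13439017 to 13439096, no region: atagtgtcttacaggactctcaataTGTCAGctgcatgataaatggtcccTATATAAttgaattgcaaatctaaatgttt
sls-2.1, SL2, chromosome II, 5844785 to 5844864, rank 124: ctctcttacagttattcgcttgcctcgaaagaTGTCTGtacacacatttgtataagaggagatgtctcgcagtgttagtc
sls-2.2, SL2, chromosome II, 5543518 to 5543597, rank 209: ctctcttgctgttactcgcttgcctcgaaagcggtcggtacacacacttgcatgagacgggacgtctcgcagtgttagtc
sls-2.8, SL2, chromosome III, 12250385 to 12250464, rank 472: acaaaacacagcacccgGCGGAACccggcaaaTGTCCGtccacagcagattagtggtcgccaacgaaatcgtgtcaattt
sls-2.3, SL2, chromosome II, 5544274 to 5544353, no region: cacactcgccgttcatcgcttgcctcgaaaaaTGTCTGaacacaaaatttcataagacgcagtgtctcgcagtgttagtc

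Pairs with much upstream sequence in common did not always have the same signal. Among the pairs compared, sls-2.1 and sls-2.2 shared the most, 68 of the 80 upstream bases without gaps. Both had a thresholded peak, with pooled signals of 314 and 231. With sls-2.3, which had no region, sls-2.1 shared 63 of the 80 bases. C28A5.7 and R07E5.16 encode the same RNA and share 65 of the 80 upstream bases without gaps (81.2%), and 49 of the 50 nearest to the gene. Their pooled signals were 197 and 116, with 110 and 48.5 in replicate 1 but 79.8 and 68.3 in replicate 2, where both ranked within the top 668. The neighbours sls-2.2 and sls-2.3, which lie 457 bp apart on opposite strands, share 61 of 80 upstream bases without gaps (76.2%), and their genes differ by 3 base edits. The pooled summit at sls-2.2 lay 117 bp from its 5′ end, just beyond its 3′ end and on the side of sls-2.3, while the nearest pooled summit to sls-2.3 was 449 bp away.

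The upstream words were common to members with and without signal. TGTCNG stood on the gene's strand in the 100 bases upstream of 79 members (61.2%) and of 5.38% of all genes, and on either strand at 62.8% of members and 9.71% of all genes. It was present at all 19 U2 genes, which had weak regions or none, and at 16 of 18 SL2 genes, and its median start was 47 bases before the 5′ end. GCGGAAC stood on the gene's strand at 32 members (24.8%) and at 0.294% of all genes, and on either strand at 24.8% of members and 0.499% of all genes. TATATAA, in the form of a TATA box, stood on the gene's strand at 15 of 22 U6 genes, 30 or 31 bases before the 5′ end, at no other gene with a family, and at 2.43% of all genes (3.52% on either strand). The 3 U6 genes with a thresholded peak all held TATATAA, as did 12 of the 19 without one, and GCGGAAC was present at 2 of the 3 and at 3 of the 19. Of the SL2 genes with and without a thresholded peak, TGTCNG stood on the gene's strand at 4 of 5 and 12 of 13. None of the 3 words overlaps another in these windows. Upstream base composition differed between U6 genes with and without a thresholded peak: GC content of the 100 bases upstream was 48.0 to 55% (median 54%) at the 3 U6 genes with a thresholded peak, against 25 to 53.0% (median 35.0%) at the other 19. In SL2 it was 48.0 to 57.0% (median 52.0%) at the 5 genes with a thresholded peak, against 38 to 58.0% (median 48.0%) at the other 13, and the median over all members was 51.0%. The part of base composition in the signal was not tested.

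Summits lay at or close to the genes, with no fixed offset. In the 41 members with a region the median pooled summit was 13 bp downstream of the gene's 5′ end, within a window that allows at most 200 bp on either side of the gene. It lay inside the gene in 17, upstream in 18 and beyond the 3′ end in 6. Inside positions made up 41.5% of members with a region, 51.7% of tRNA genes with a region and 20.9% of snoRNA genes with a region, where 94 of 139 summits were upstream. For U6 the 3 summits of thresholded peaks were at 13, 67 and -20 bp, and for SL2 the 5 were at 87, -10, 117, -110 and -104 bp. At the 7 genes with a thresholded peak and a summit within 200 bp in both replicates, the replicate summits lay up to 96 bp apart (sls-2.8), and at sls-2.9 the overlapping regions had summits 234 bp from the gene in replicate 1 and 133 bp in replicate 2. The pooled regions of these 8 genes were 304 or 416 bp wide. The median over members was 40.5 bp in replicate 1 and 57 bp in replicate 2, both further downstream than the pooled median of 13 bp. The 5′ end of a protein-coding gene was within 200 bp of the pooled summit for 3 of the 41 members.

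**Figure D3:**
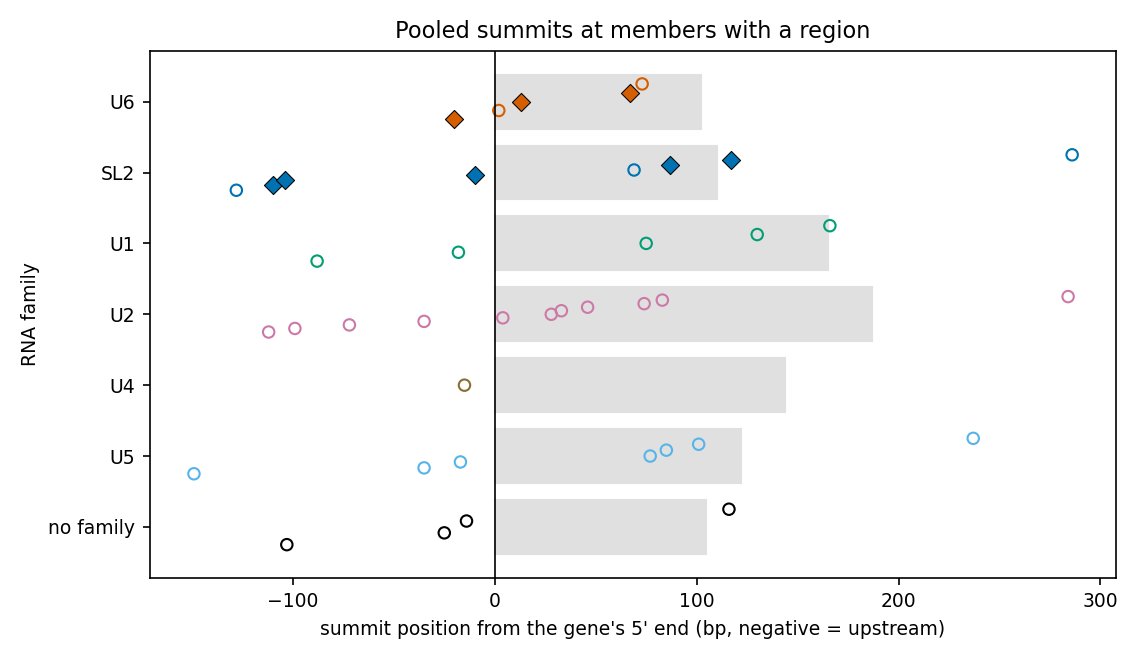
Position of the pooled summit relative to the gene's 5′ end (bp, negative is upstream) for the 41 members with a region, by RNA family. Filled diamonds are thresholded peaks, open circles are weaker regions and the grey bars span the family's median gene length. Summits run from -149 to 286 bp, and those of U6 lie between -20 and 73 bp.

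Copies that stood apart from other members carried a region more often than clustered copies. A member was called clustered when another lay within 5 kb, which held for 68 members. Of the 61 dispersed members 27 had a region (44.3%) and 7 had a thresholded peak (11.5%), and of the 68 clustered members 14 had a region (20.6%) and 1 had a thresholded peak (1.47%), which was sls-2.2. The shares over all genes were 29.2% and 2.09%. The 14 clustered members rested on 12 distinct regions, since sup-39 and T27E4.12 each share a region with an overlapping gene model. The gene sup-39 was called clustered only because of the model inside it. With the SL1 array set aside, the 14 members with a region and the 1 with a thresholded peak were of 56 clustered members. The contrast was not the same in each family. For U6 the numbers were 5 of 9 dispersed genes and 0 of 13 clustered genes with a region. For SL2 they were 4 of 9 dispersed and 4 of 9 clustered genes with a region, with 4 and 1 thresholded peaks. For U2 they were 7 of 12 dispersed and 4 of 7 clustered genes with a region. The clustered U6 genes include K09B11.11 to K09B11.16 on chromosome IV, 6 genes of which the nearest pooled summit was 1427 to 6075 bp away, and F54C8.8 to F54C8.10 on chromosome III. The numbers also differed by chromosome, among the copies as among all genes. On chromosome III, 4 of 4 dispersed and 0 of 3 clustered U6 genes had a region, while on IV it was 0 of 2 dispersed and 0 of 10 clustered U6 genes. The dispersed SL2 genes had a region at 0 of 5 on IV and at 4 of 4 on the other chromosomes.

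Thresholded peaks at members lay on chromosomes I (2 of 16 members), II (2 of 16) and III (4 of 13), with 0 of 41 on IV, 0 of 40 on V and 0 of 3 on X. Among all genes the share with a thresholded peak was 3.97% on I, 2.73% on II, 4.17% on III, 1.64% on V and 4.28% on X. On IV it was 0.609% of all genes and 2.36% of the 4990 genes that are not piRNA genes.

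Repeated sequence limits what these lists can show for some families. The share of 50-base words in the gene and 200 bp on either side that occur once in the genome was used as the measure. Its median was 0% for SL1 (0.0 to 29.4%), 62.3% for U2 (0.0 to 96.4%), 82.4% for U4, 83.4% for U6 (54.5 to 100%), 83.9% for U1, 91.2% for U5, 94.2% for SL2 and 100% for SmY (99.1 to 100%), against 91.5% for tRNA genes and 100% for snoRNA genes. For the SL1 genes, at which reads can hardly be placed on 1 copy, the lack of a region therefore does not show a lack of signal. For the SmY genes almost every word was unique, and no region was listed. Of the 19 members with a unique share under 50%, 1 had a region, and of the 110 with a larger share 40 had one (36.4%) and all 8 thresholded peaks were among them. The 19 include all 12 SL1 genes, which are near-identical copies in 1 array, so this contrast rests largely on that array. Within U6, the 3 genes with a thresholded peak had shares of 71.3 to 87.2%, inside the range of the genes without a region. Clustered U6 genes had a median share of 70.2% (54.5 to 85.3%), against 84.5% (71.3 to 100%) for dispersed ones. The clustered and dispersed medians were 49.1% and 72.5% in U2, but 100% and 93.5% in SL2. The part of repeated sequence in the contrast between clustered and dispersed copies was not tested. The sources used here do not give how the authors treated reads with several matches.

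**Figure D4:**
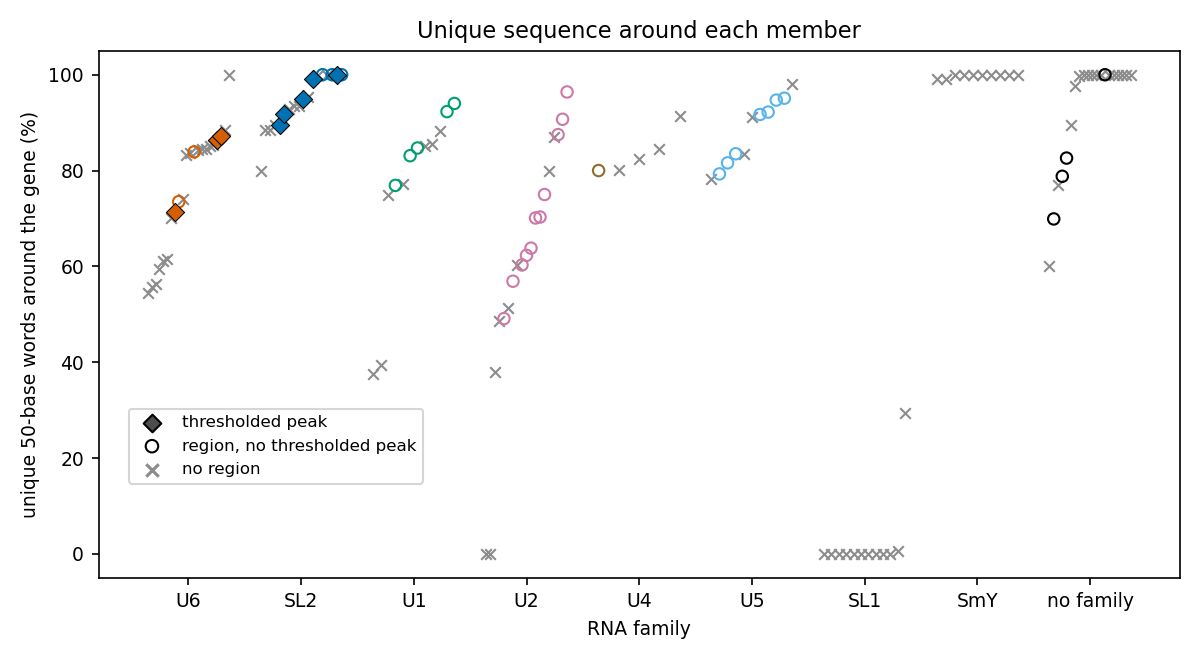
Share (%) of 50-base words around each member that occur once in the genome, by RNA family. Filled diamonds are members with a thresholded peak, open circles have a weaker region and grey crosses have none. SL1 lies at or near 0% with 1 gene at 29.4%, SmY lies at 99.1% or more, and crosses and filled diamonds overlap in U6 and SL2.

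Of the 41 members with a pooled region, 25 had a region in both replicate lists, 7 in replicate 1 alone and 9 in replicate 2 alone. Over these 25 members, which share 23 regions of replicate 1, Spearman's rho of the 2 ranks was 0.71, given as a description since identical copies are not independent points. Among the strongest 668 regions of a list, replicate 1 held 6 members (4.65%, against 2.08% of all genes) and replicate 2 held 9 (6.98%, against 2.00% of all genes). The 6 members of replicate 1 were all among the 9 of replicate 2. The other 3 of replicate 2 were sls-2.8, sls-2.9 and R07E5.16.

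**Figure D5:**
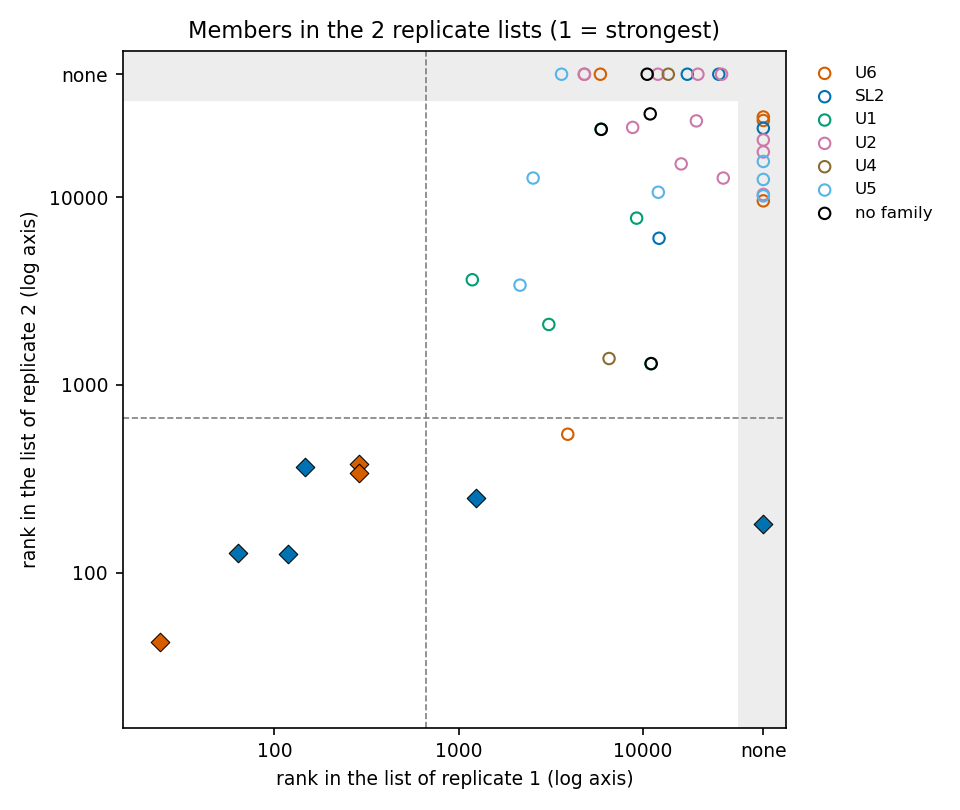
Rank of the strongest region at each member in the list of replicate 1 (horizontal, log axis) and replicate 2 (vertical, log axis), coloured by family. Grey bands hold members listed in only 1 replicate, dashed lines mark rank 668 and filled diamonds are thresholded peaks. The 6 members in the lower left corner are 3 U6 and 3 SL2 genes, with ranks from 24 to 287 in replicate 1 and from 43 to 380 in replicate 2.

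Genes for proteins linked to these RNAs were read from a list of 69 symbols, of which 65 matched a protein-coding gene. A thresholded peak with its summit from 500 bp upstream to 100 bp downstream of the 5′ end was found at 2 of the 65 (3.08%), against 1.51% of all protein-coding genes. Both encode ring proteins that bind snRNAs. At snr-1, which encodes an Sm core protein, the pooled signal was 242 (rank 190), with ranks of 243 in replicate 1 and 157 in replicate 2. At lsm-6, a subunit of the Lsm rings, of which one binds U6, it was 149 (rank 462), with ranks of 687 and 658. A region of any strength was found at 24 of the 65 (36.9%), against 21.8% of all protein-coding genes. By group this was 8 of 15 Sm and Lsm genes, 4 of 16 genes of snRNP-specific and SL RNP proteins, 2 of 4 snRNP assembly genes, 3 of 8 SNAPc and TATA-binding protein genes, 3 of 8 genes of RNA polymerase III and its factors, 3 of 11 Integrator genes and 1 of 3 small-RNA factors (tost-1, beside nhl-2 and pid-1). The gene of the SNAPc subunit homologue snpc-3.4 had the strongest region of its group (signal 102, rank 1424), which is below the thresholded list. Among the 24 is snr-4, whose region is the one already counted for the U4 gene C52E4.8.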

How the data were processed

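Per the descriptions deposited with each library, the authors called lists of peaks and background on each replicate's alignments and on both pooled, against a control alignment, and made a thresholded list by the irreproducible discovery rate. For the aligner and peak caller, name and version were not given in the sources used here. Each region's signal value is as the authors deposited it, and depth is unknown. A summit is the region's start plus its deposited summit offset, counted from 1.

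Gene models came from Ensembl release 115 and sequence and unique gene names from RefSeq, both for WBcel235. All 129 members matched a RefSeq name. U1 and U4 were recognised by a word in the first 20 and 25 bases of the gene. For U2, U5 and U6 the word had to lie in the first 80 bases. SL1, SL2 and SmY were recognised by symbol. Named genes are every member with a thresholded peak, the highest and lowest of each family, those just inside and outside the thresholded list, all of a family with 5 or fewer, and pathway genes with a thresholded promoter peak. Other members named in the text were chosen after their values were seen. Members, lists and families were chosen with earlier results of these data known. No test was run, since there is 1 group of 2 replicates without a control list. The region search was tested on simulated data. Alternatives changed the distance, replicate, clustering, word length and promoter window. The software was scipy 1.17.1, matplotlib 3.10.9, pandas 2.3.3, numpy 2.4.6 and edlib, run in Python 3.11.15.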

Additional observations from a re-analysis of the deposited data

How the results depend on the processing

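Of 166 alternative values, 136 were labelled as unchanged. For counts, ranks and summit positions this meant within 1.5 times the count or within the spread between the replicates. The median unique shares come from the genome alone and have no replicates, so that limit does not describe them. Some alternatives could not change a count. A family with no region or peak at 200 bp cannot gain one under a shorter distance or with only the stronger thresholded peaks. The number labelled as unchanged is therefore no measure of robustness. When the summit had to lie inside the gene, 18 members had a region (in place of 41) and 3 had a thresholded peak (in place of 8). By family, regions inside the gene then numbered 2 for U1, 6 for U2, 0 for U4, 3 for U5, 3 for SL2 and 0 for genes without a family, with 1 SL2 thresholded peak. With a limit of 100 bp SL2 had 5 regions and 3 thresholded peaks, and with 500 bp SmY had 1 region and the median summit lay at 39.5 bp in place of 13 bp. With clusters drawn at 20 kb, 22 clustered members had a region and 2 had a thresholded peak, over 87 clustered members. With 75-base words the median unique share of SL2 was 100%. Using 1 replicate list in place of the pooled one, the number of regions ranged from 7 to 9 for U2, 1 to 2 for U4 and 4 to 6 for U5, that of SL2 thresholded peaks from 3 to 5 and that of pathway genes from 1 to 2. Median ranks of members with a region then ranged from 3629 to 5932 for U1, 16122 to 17365 for U2, 1383 to 10134.5 for U4, 3074.5 to 11502.5 for U5, 287 to 547 for U6, 250 to 1234 for SL2 and 10743 to 22915 for genes without a family, and the median summit position from 40.5 to 57 bp. The cause of these shifts was not tested. The added requirement that the summit lie nearer to the member than to any tRNA or snoRNA gene or protein-coding 5′ end, chosen after seeing the data, left 40 members with a region and 7 with a thresholded peak, 3 in U6 and 4 in SL2. That requirement did not consider genes annotated as ncRNA. No paired analysis was possible because there is 1 group.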
